A study of Mus musculus with 96 samples.

Results

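Iron handling genes and metallothioneins were taken by name from the gene-level count table of a mouse liver RNA-seq study of archival preservation: 9 genes of 47373, all 9 of which were found in the table and tested in every comparison. They are hepcidin (Hamp) and its paralogue Hamp2, transferrin (Trf), the transferrin receptor (Tfrc), the ferritin heavy and light chains (Fth1 and Ftl1), ferroportin (Slc40a1) and the metallothioneins Mt1 and Mt2. The livers came from 12 male B6C3F1 mice, a hybrid laboratory strain, aged 10 to 11 weeks. Of these, 6 had received phenobarbital (PB) at 600 ppm in their drinking water for 7 days, and 6 control mice (Con) had received 0 ppm. Each liver gave 1 library in each of 8 preservation states, so 96 libraries formed 16 groups of 6.

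Every frozen liver sample, a mixture of lobes, was divided into 4 portions. In one state the portion stayed frozen. The other 3 were fixed and embedded in paraffin: after 3 months in 70% ethanol, after 18 hours in 10% buffered formalin and then 70% ethanol to 3 months (18-hour formalin), or after 3 months in 10% buffered formalin (3-month formalin). The last 4 states are workups of the 3-month formalin material. In TAE, a Tris-acetate-EDTA buffer at 70 °C was applied for 30 minutes to RNA already isolated. In the others the RNA isolation itself included 18 hours at 55 °C, without a catalyst in the AllPrep kit (heat only), with an organocatalyst in the same kit (catalyst AllPrep), or with the organocatalyst in the PureLink kit (catalyst PureLink). Frozen RNA was isolated with RNAzolRT and RNeasy MinElute columns, and the protocol text used here names no kit for the ethanol, 18-hour formalin, 3-month formalin or TAE libraries. A kit difference may therefore lie within every comparison with frozen liver, and within those of the AllPrep and PureLink workups with 3-month formalin, where kit and state cannot be told apart. Phenobarbital is a liver enzyme inducer that acts through the constitutive androstane receptor. The iron genes were compared between PB and Con mice within each state, and between states.

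Total counts per library ran from 1264563 to 18442730, with a median of 11913138. The shallowest was the 3-month formalin library of Con animal 8A. The 9 genes took a mean of 0.287% of the counts in frozen libraries and 0.416% in TAE libraries. The share of mitochondrial counts averaged 2.70% in PB and 2.43% in Con frozen libraries, 10.4% and 9.43% in 3-month formalin, and 10.8% and 5.82% in heat only, where PB animal 18B had 16.5%. The 6 hepatocyte markers summed to 48156 to 80248 CPM (counts scaled to a common library size) in PB and 69003 to 96343 CPM in Con frozen libraries, and their means were 60300 ± 12555 CPM in PB and 81145 ± 9532 CPM in Con (SD, n = 6 each).

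Hepatocytes make hepcidin, a peptide hormone that binds ferroportin, the iron exporter of cells, and lowers the release of iron into plasma. Transferrin carries plasma iron, the transferrin receptor takes it up, and ferritin shells of heavy and light chains store it. Iron regulatory proteins bind hairpins called iron-responsive elements: at the 5′ end of ferritin and ferroportin mRNAs they block translation, and at the 3′ end of Tfrc mRNA they protect the message from decay. Metallothioneins are small cysteine-rich proteins that bind zinc and copper, and in liver they respond to metals, glucocorticoids and inflammation, while hepcidin is known to respond to iron through BMP signalling and to interleukin-6 through STAT3.

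The iron-responsive elements are shown first because Tfrc and both ferritins, which carry them, were called between PB and Con. A search of the reference transcripts (GENCODE M21, GRCm38, 1 transcript per gene) looked for a 17-base hairpin with an unpaired C, 5 pairs (G-T pairs allowed) and a 6-base loop opening with CAGTG, shown in capitals. The pattern stood in the 5′ UTR of 21 of 22136 coding transcripts (0.0949%) and in the 3′ UTR of 97 (0.438%). Fth1, Ftl1 and Slc40a1 had 1 each in the 5′ UTR and Tfrc had 4 in the 3′ UTR, while no match was found in the other 5 members. The sites lie at chr19:9982738-9982754 (plus strand) in Fth1, chr7:45459785-45459801 (minus) in Ftl1, chr1:45925471-45925487 (minus) in Slc40a1, and chr16:32631225-32631241, chr16:32631604-32631620, chr16:32631669-32631685 and chr16:32631716-32631732 (plus) in Tfrc.
Fth1 5′ UTR: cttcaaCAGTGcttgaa
Ftl1 5′ UTR: cttcaaCAGTGtttgaa
Slc40a1 5′ UTR: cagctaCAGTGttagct
Tfrc 3′ UTR, site a: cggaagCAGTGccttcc
Tfrc 3′ UTR, site b: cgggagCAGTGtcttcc
Tfrc 3′ UTR, site c: cggagaCAGTGatctcc
Tfrc 3′ UTR, site d: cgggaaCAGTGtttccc

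The proximal promoters of Hamp and Hamp2 are shown because their counts differed in size and in their call between PB and Con. Their count ratio within a library did not pass between PB and Con in any state (smallest adjusted exact permutation p = 0.543). The calls therefore show no difference in the PB effect between the 2 genes. Each window covers bases 150 to 51 upstream of the annotated start (RefSeq, GRCm38.p6), at chr7:30944080-30944179 for Hamp and chr7:30924232-30924331 for Hamp2, both on the minus strand. Capitals mark the BMP-type motif GGCGCC and the STAT-type motif TTCNNNGAA, searched on both strands and not overlapping each other here. Hamp held 1 of each, and Hamp2 held the STAT-type motif alone. Within the 250 bases before the start, GGCGCC was present in 9.59% and TTCNNNGAA in 7.02% of 32851 promoters. A match describes letters, not binding.
Hamp promoter: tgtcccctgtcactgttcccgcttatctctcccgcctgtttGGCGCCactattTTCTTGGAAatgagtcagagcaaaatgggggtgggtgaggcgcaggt
Hamp2 promoter: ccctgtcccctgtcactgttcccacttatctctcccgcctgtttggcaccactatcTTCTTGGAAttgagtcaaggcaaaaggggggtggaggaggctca

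Hamp and Hamp2 are near-identical copies whose reads the counting could have split unevenly. Their coding sequences, 249 bases each, differed at 16 bases (93.6% identity), and 14 of the 16 fell in the last 75 bases, the stretch that encodes the mature peptide and is shown with the differing bases in capitals. Both held 8 cysteine codons there.
Hamp last 25 codons: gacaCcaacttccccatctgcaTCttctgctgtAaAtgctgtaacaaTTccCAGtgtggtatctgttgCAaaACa
Hamp2 last 25 codons: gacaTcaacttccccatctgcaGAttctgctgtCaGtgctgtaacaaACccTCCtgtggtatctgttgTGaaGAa
The coding sequences of Mt1 and Mt2, 183 bases and 61 codons each, differed at 38 bases (79.2% identity). They are shown with their cysteine codons, 20 in each, in capitals.
Mt1 coding: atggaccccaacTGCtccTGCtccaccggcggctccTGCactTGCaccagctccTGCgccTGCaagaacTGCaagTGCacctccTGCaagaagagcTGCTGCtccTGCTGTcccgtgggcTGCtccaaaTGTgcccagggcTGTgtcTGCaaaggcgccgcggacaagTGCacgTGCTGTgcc
Mt2 coding: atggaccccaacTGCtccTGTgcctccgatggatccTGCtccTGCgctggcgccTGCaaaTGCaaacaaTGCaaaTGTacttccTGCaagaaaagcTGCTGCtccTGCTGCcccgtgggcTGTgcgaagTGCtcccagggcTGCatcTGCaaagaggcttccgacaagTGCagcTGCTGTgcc

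In GRCm38 coordinates, Hamp (ENSMUSG00000050440) spans chr7:30942368-30944032 and Hamp2 (ENSMUSG00000056978) chr7:30922372-30924681, both on the minus strand. Ftl1 (ENSMUSG00000050708) lies at chr7:45457944-45459884 on the minus strand and Fth1 (ENSMUSG00000024661) at chr19:9980598-9985098 on the plus strand. Tfrc (ENSMUSG00000022797) lies at chr16:32608920-32632794 (plus), Trf (ENSMUSG00000032554) at chr9:103204001-103230444 (minus) and Slc40a1 (ENSMUSG00000025993) at chr1:45908068-45926523 (minus). Mt1 (ENSMUSG00000031765) at chr8:94179082-94180327 and Mt2 (ENSMUSG00000031762) at chr8:94172664-94173568 are neighbours on the plus strand. Reads from ferritin pseudogenes were few: Fth-ps2 had 133 counts and Ftl1-ps2 had 18 over all 12 frozen libraries.

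Per kilobase of transcript, the scale on which genes can be compared, the ferritin light chain was the most abundant member in PB frozen liver, with a mean of 998 CPM per kb, followed by Fth1 at 785, Trf at 403 and Hamp at 362. In Con frozen liver Hamp stood at 728 CPM per kb, Ftl1 at 630, Fth1 at 533 and Trf at 525. The metallothioneins averaged 276 (Mt1) and 138 (Mt2) CPM per kb in PB, against 213 and 74.2 in Con, with a spread between animals described further on. Slc40a1 (59.5 in PB and 58.1 in Con), Hamp2 (15.9 and 21.9) and Tfrc (18.7 and 6.66) were the least abundant by mean. The place of Mt2 above them rests on the mean. Its medians, 17.2 CPM in PB and 25.8 CPM in Con, lay below its means of 70.4 and 37.9 CPM.

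Phenobarbital changed the counts of 4 of the 9 genes in frozen liver. Tfrc, Fth1 and Ftl1 were higher and Hamp was lower in PB mice, by edgeR's quasi-likelihood test at a Benjamini-Hochberg adjusted p under 0.05 over all genes tested. In the same comparison 9.43% of all genes tested were called, 5.89% higher and 3.53% lower. The median log2 fold change was 0.39 over the 9 members and -0.01 over all genes.

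Tfrc, the receptor for iron-loaded transferrin, showed the largest called difference among the 9. In PB frozen livers its lowest, median and highest levels were 47.8, 90.1 and 141 CPM, against 20.1, 29.3 and 45.6 CPM in Con livers. Every PB animal stood above every Con animal. The share of all genes whose groups separate in this way is not given, here or for the genes and states below. The group means were 91.4 ± 31.5 CPM in PB and 32.6 ± 10.8 CPM in Con (SD, n = 6 each), and the log2 fold change was 1.48 ± 0.25 (SE, adjusted p = 0.0023). All 6 markers of proliferating cells, which are known to carry more Tfrc, were called higher in PB as well (median log2 fold change 2.30), and their summed level ran from 30.9 to 168 CPM in PB and from 13.4 to 24.01 CPM in Con. Their part in the Tfrc difference was not tested. Animals 20B and 80B had the highest marker sums, 168 and 156 CPM, and ranked 3 and 1 of the 12 in Tfrc. Animal 75C, with 30.9 CPM of marker counts, the lowest sum of the PB animals, ranked 2 with 106 CPM of Tfrc. Here and for every gene below, a change in the number of cells of a type and a change in RNA per cell cannot be told apart in bulk tissue.

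Both ferritin chains were higher in PB frozen livers with little spread. Fth1, the ferroxidase subunit, ran from 646 through a median of 715 to 880 CPM in PB and from 446 through 504 to 537 CPM in Con. Ftl1, the subunit that aids mineral nucleation, ran from 762 through 999.97 to 1091 CPM in PB and from 537 through 615 to 681 CPM in Con. The groups did not overlap for either chain. The log2 fold change was 0.56 ± 0.08 for Fth1 (adjusted p = 0.000988) and 0.66 ± 0.09 for Ftl1 (adjusted p = 0.000664). In both chains the Con values lay closer together than the PB values, with SDs of 87.0 CPM in PB and 32.5 CPM in Con for Fth1, and of 122 CPM in PB and 51.9 CPM in Con for Ftl1.

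Hamp, the gene of the hormone that restrains iron export, was lower in PB frozen livers, with overlap. Its lowest, median and highest levels were 82.01, 142 and 226 CPM in PB and 161, 316 and 388 CPM in Con. The overlap came from Con animal 82B alone, whose 161 CPM lay below PB animals 18B (204 CPM) and 20D (226 CPM). The log2 fold change was -1.01 ± 0.26 (adjusted p = 0.0275). Over the 12 fits that each left out 1 animal, the log2 fold change stayed between -1.16 and -0.89 and the adjusted p between 0.0151 and 0.0622, with the call lost in 6 of the 12.

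Hamp2, the paralogue of Hamp in the mouse, did not pass the test. It ran from 2.51 through 4.75 to 17.4 CPM in PB and from 1.65 through 6.44 to 26.4 CPM in Con, and the highest animal of each group (20D in PB, 21C in Con) stood well above the others. The log2 fold change was -0.47 ± 0.56 (adjusted p = 0.658). Within a library, the log2 ratio of Hamp2 to Hamp counts averaged -4.67 ± 0.69 in PB and -5.41 ± 1.26 in Con (SD, n = 6 each; two-sided exact permutation p = 0.245, adjusted p = 0.543 over the 24 PB ratio tests).

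Transferrin, the plasma iron carrier that hepatocytes secrete, and ferroportin, the exporter, were not called. Trf averaged 1035 ± 301 CPM in PB and 1350 ± 211 CPM in Con frozen livers, with a log2 fold change of -0.38 ± 0.17 (adjusted p = 0.191). The PB animals fell into 3 between 737 and 890 CPM and 3 between 1017 and 1489 CPM. Slc40a1 averaged 201 ± 20.8 CPM in PB and 196 ± 29.8 CPM in Con, with a log2 fold change of 0.03 ± 0.10 (adjusted p = 0.887), the closest pair of group means of the 9 genes on the log2 scale.

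**Figure D1:**
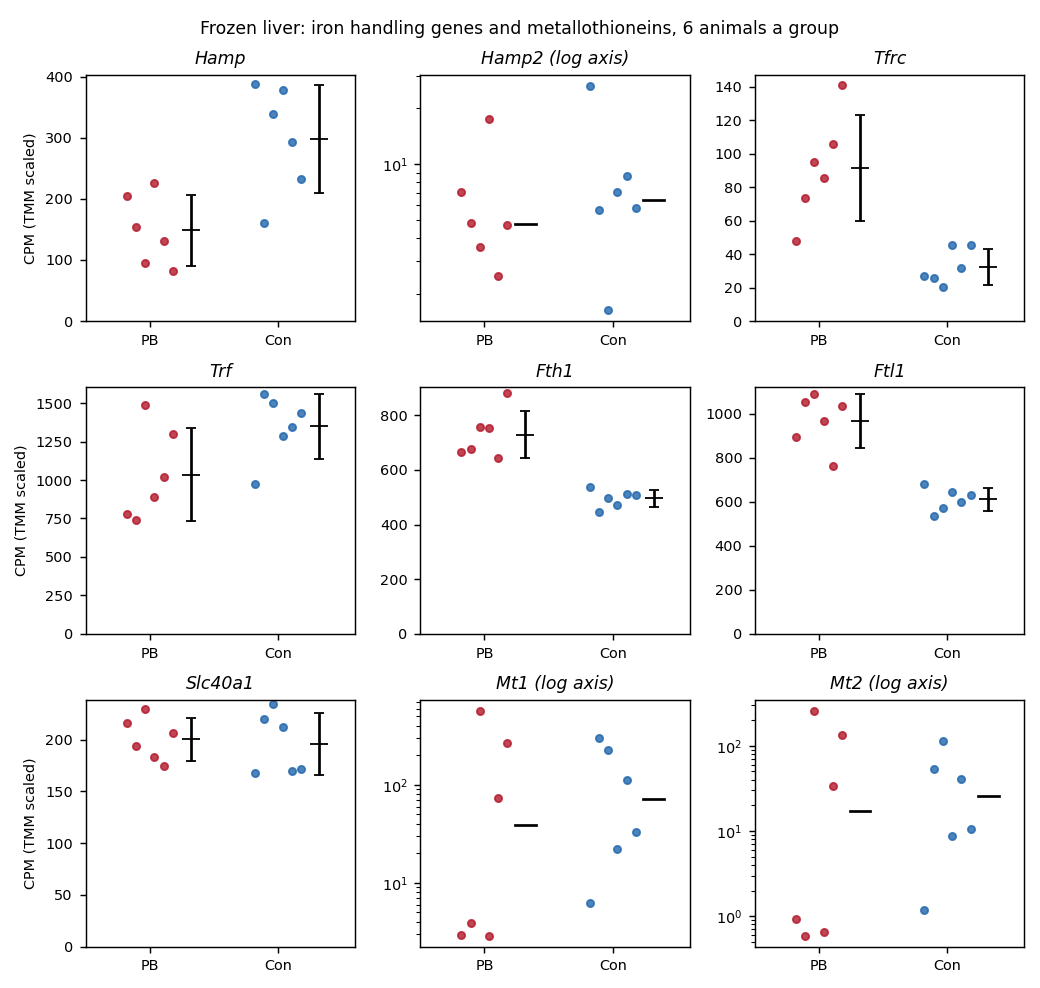
Level of each of the 9 genes in frozen liver in CPM, 1 point per animal, PB left of Con (6 animals each). Bars give the mean and SD on linear axes, and the median on the log axes of Hamp2, Mt1 and Mt2. For Tfrc, Fth1 and Ftl1 all PB points lie above all Con points, while for Mt1 and Mt2 both groups run from a few CPM or below 1 CPM to above 100 CPM.

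The difference in Tfrc was called in all 8 states, and those in the ferritins and Hamp in most. The 9 genes gave 4 calls in each of ethanol, 18-hour formalin, heat only and catalyst PureLink (3 higher and 1 lower in PB), where 6.98%, 4.88%, 5.03% and 4.65% of all genes tested were called. Of all genes, 4.82% were higher and 2.16% lower in ethanol, 3.45% and 1.43% in 18-hour formalin, 3.53% and 1.5% in heat only, and 3.21% and 1.44% in catalyst PureLink. The members gave 2 calls in catalyst AllPrep, 1 higher and 1 lower, where 4.94% of all genes were called, 3.12% higher and 1.82% lower. They gave 1 call, Tfrc, in 3-month formalin (2.1% of all genes called, 1.66% higher and 0.446% lower) and in TAE (3.29%, 2.35% higher and 0.941% lower). Over the 8 states this made 24 calls among 72 tests, 18 higher and 6 lower. The states are libraries of the same 12 livers, so they repeat the measurement and not the animals.

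Tfrc had log2 fold changes between 1.16 and 1.48, with adjusted p between 0.0023 and 0.0118. In 3-month formalin it ran from 59.1 to 190 CPM in PB and from 29.8 to 60.5 CPM in Con, and in catalyst PureLink from 46.1 to 121 CPM in PB and from 26.1 to 44.0 CPM in Con. All PB animals lay above all Con animals in frozen, heat only, catalyst AllPrep and catalyst PureLink libraries, and the groups overlapped in the other 4. The call held in all 96 fits that left out 1 animal. Proliferation markers were called higher in PB in every state too: 6 of 6 in frozen, ethanol, 18-hour formalin, TAE, heat only and catalyst AllPrep, 5 of 6 in catalyst PureLink and 5 of the 5 tested in 3-month formalin. Animal 80B had the highest Tfrc level in all 8 states, from 121 to 190 CPM, and 75C the second highest, from 85.7 to 119 CPM.

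Fth1 and Ftl1 were called in the same 5 states, namely frozen, ethanol, 18-hour formalin, heat only and catalyst PureLink. In ethanol Fth1 averaged 848 ± 54.1 CPM in PB and 553 ± 39.5 CPM in Con (log2 fold change 0.62 ± 0.07, adjusted p = 0.000112), and Ftl1 averaged 895 ± 110 CPM in PB and 549 ± 41.2 CPM in Con (0.71 ± 0.09, adjusted p = 0.000251). In 3-month formalin the means lay as far apart, but the spread was wider. Fth1 averaged 1112 ± 340 CPM in PB and 737 ± 143 CPM in Con (log2 fold change 0.61 ± 0.19, adjusted p = 0.128). Ftl1 averaged 1250 ± 402 CPM in PB and 777 ± 126 CPM in Con (0.71 ± 0.19, adjusted p = 0.0667). DESeq2, which called 3.71% of all genes there, called both (adjusted p = 0.0353 for Fth1 and 0.00747 for Ftl1), and edgeR with library totals called Ftl1 (adjusted p = 0.033).

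The ferritin differences were greatest in the heat-only libraries, at 0.87 ± 0.20 for Fth1 (adjusted p = 0.0183) and 0.99 ± 0.18 for Ftl1 (adjusted p = 0.00452). PB animals 80B, 20B and 18B stood highest there for Ftl1, at 1289, 1204 and 1158 CPM, against 421 to 602 CPM in the 6 Con animals. In the same state the mitochondrial share was 6.88% to 16.5% in PB and 4.96% to 7.19% in Con. The sum of the 6 hepatocyte markers averaged 26177 ± 7997 CPM in PB and 43704 ± 5571 CPM in Con (SD, n = 6 each). Of these markers edgeR called 1 (5 at an unadjusted p below 0.05) and DESeq2 called 3 lower. The part of the mitochondrial share or of the hepatocyte markers in the ferritin difference was not tested. Leaving out Con animal 82B took Fth1 over the threshold there (adjusted p = 0.0521), the 1 call of Fth1 lost in 60 such fits over its 5 called states, and Ftl1 lost none in 60.

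Hamp had log2 fold changes from -1.14 to -0.81 over the 8 states and was called lower in PB in 6. It was not called in 3-month formalin (-0.81 ± 0.28, adjusted p = 0.199), where it averaged 173 ± 83.0 CPM in PB and 306 ± 102 CPM in Con, nor in TAE (-0.94 ± 0.27, adjusted p = 0.0835). The called states with the lowest adjusted p were heat only (-1.14 ± 0.25, adjusted p = 0.0144), where Hamp averaged 109 ± 38.2 CPM in PB and 249 ± 74.6 CPM in Con, and catalyst PureLink (-1.12 ± 0.26, adjusted p = 0.0211). The calls in these states held without each animal in turn, whereas in the 4 other called states it did not, and 31 of all 72 such fits lost it. With library totals in place of TMM scaling, Hamp was not called in 18-hour formalin (-0.89 ± 0.26, adjusted p = 0.0643) or catalyst AllPrep (-1.02 ± 0.30, adjusted p = 0.0617). The groups overlapped in all 8 states.

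The other 5 genes were called in no state. Trf had log2 fold changes from -0.52 to -0.37, with adjusted p no lower than 0.191, and Hamp2 from -1.12 to -0.41, with adjusted p no lower than 0.389. Slc40a1 ran from 0.02 in ethanol to 0.35 in heat only (adjusted p no lower than 0.157). Mt1 (0.16 to 0.55) and Mt2 (0.67 to 1.17) carried standard errors above 1 on the log2 scale in every state.

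No difference in the PB effect between a preserved state and frozen liver was called by edgeR for any of the 9 genes in 7 states, nor for any other gene (0.0% of all genes). None of the 63 terms had an unadjusted p below 0.05. With the animal as a block, which removes the differences between livers, 14 of 63 had an unadjusted p below 0.05 and none an adjusted one, the smallest being 0.245. DESeq2 was not run on these terms. A term that misses the threshold does not show that the effects were alike.

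**Figure D2:**
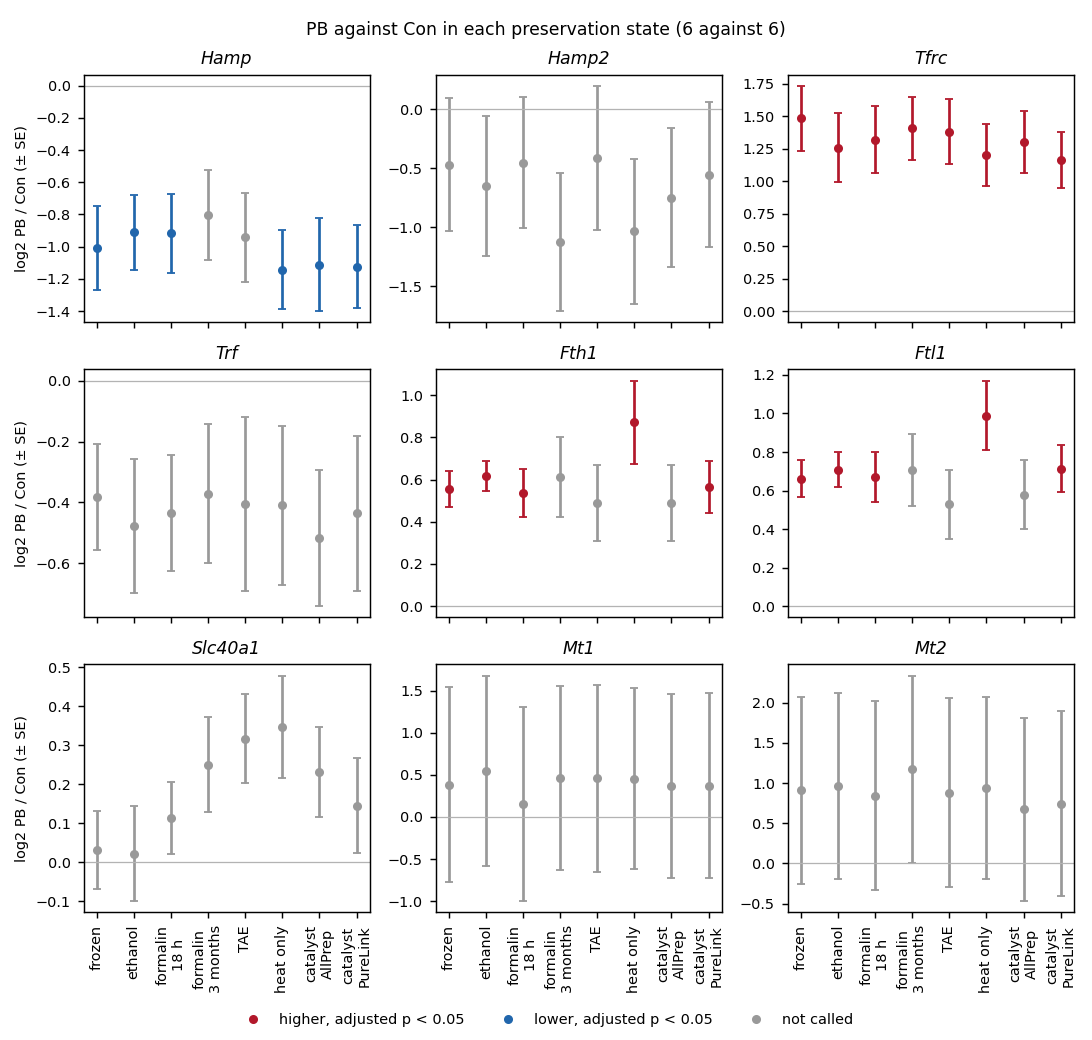
Log2 fold change of PB over Con for each gene in each of the 8 states, with SE bars, from separate fits of 12 libraries. Red points are called higher in PB, blue points called lower and grey points not called; Tfrc is red in all 8 states and Hamp blue in 6.

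Metallothionein counts differed more between animals than those of nearly any other gene, and in the same animals in every state. In PB frozen livers Mt1 was 2.92, 3.85, 561, 2.89, 73.5 and 265 CPM in animals 18B, 18D, 20B, 20D, 75C and 80B. In Con frozen livers it was 227, 22.0, 112, 6.15, 301 and 33.3 CPM in animals 8A, 8C, 8D, 21C, 82B and 90C. Both groups held animals with a few CPM and animals with more than 200 CPM.

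Mt2 followed the same animals. Its lowest, median and highest levels were 0.592, 17.2 and 253 CPM in PB and 1.18, 25.8 and 113 CPM in Con frozen livers. The log2 fold changes of 0.39 ± 1.16 for Mt1 (adjusted p = 0.88) and 0.91 ± 1.16 for Mt2 (adjusted p = 0.686) were smaller than their standard errors. For both genes the sign turned with single animals. Over the fits that left out 1 animal, the log2 fold change ran from -0.74 to 0.93 for Mt1 and from -0.15 to 1.64 for Mt2.

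The SD of Mt1 between animals within a treatment was 2.76 on the log2 scale. The SD left between the states of an animal was 0.19, after the mean of each state and treatment group was subtracted. It therefore leaves out the mean shifts between states. For Mt2 these were 3.05 and 0.24. Among 10191 genes, Mt2 ranked 3 and Mt1 ranked 6 by the SD between animals. The median gene had 0.136 between animals and 0.148 left between states. The highest animal had 154 to 300 times the Mt1 CPM of the lowest across the 8 states. Animal 20B was highest in all 8, with 329 to 698 CPM, and animals 18B, 18D and 20D held ranks 10 to 12 throughout. For Mt2 the fold between highest and lowest, 412 to 1724, rests on lowest counts of 1 to 8.

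The other members varied less between animals. The SD between animals was 1.05 for Hamp2 (rank 42), 0.52 for Hamp (rank 298), 0.48 for Tfrc (rank 356) and 0.45 for Trf (rank 434). It was 0.23 for Fth1, 0.23 for Ftl1 and 0.19 for Slc40a1. The SDs left between states of all 9 genes, with group means subtracted, lay between 0.10 and 0.26. Animal 21C had the highest Hamp2 level in all 8 states.

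Over the 12 frozen libraries, after removing the mean of each treatment group, the genes whose log2 levels were most like those of Mt1 were Ifitm2, an interferon-induced membrane protein (r = 0.99), Mt2 (0.99) and Litaf (0.98). For Mt2 they were Ifitm2 (0.99), Mt1 (0.99) and Apcs, the serum amyloid P component, an acute phase protein of the mouse (0.98). Across the other 7 states Mt1 and Mt2 had r between 0.98 and 0.99, and Ifitm2 had r with Mt1 between 0.94 and 0.98. These are correlations among libraries of the same 12 livers, picked as the highest of 9634 genes, and are descriptions.

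The summed level of an acute phase list of 16 genes, a sum that its most abundant genes dominate, was compared by animal with the metallothioneins. In frozen liver it was 23999, 21143 and 22249 CPM in PB animals 18B, 18D and 20D, which had the lowest Mt1, and 82747 and 77990 CPM in PB animals 20B and 80B, which had the highest of that group. Con animal 21C, the lowest of its group in Mt1, had 27456 CPM, and the other 5 Con animals had 49388 to 67910 CPM. Between PB and Con, 0 of the 16 acute phase genes were called by edgeR in frozen liver (3 at an unadjusted p below 0.05), while DESeq2 called 1 higher and 1 lower. Hamp ranked 11 or 12 of the 12 animals in 20B and 80B in every state. Among Con animals in frozen liver, 82B had the highest sum, 67910 CPM, and the lowest Hamp, 161 CPM. Animal 21C had the highest Hamp, 388 CPM. Con animal 8A, with a sum of 62415 CPM, ranked 2 to 6 in Hamp over the states. The part of the acute phase variation in the metallothionein or Hamp values was not tested.

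**Figure D3:**
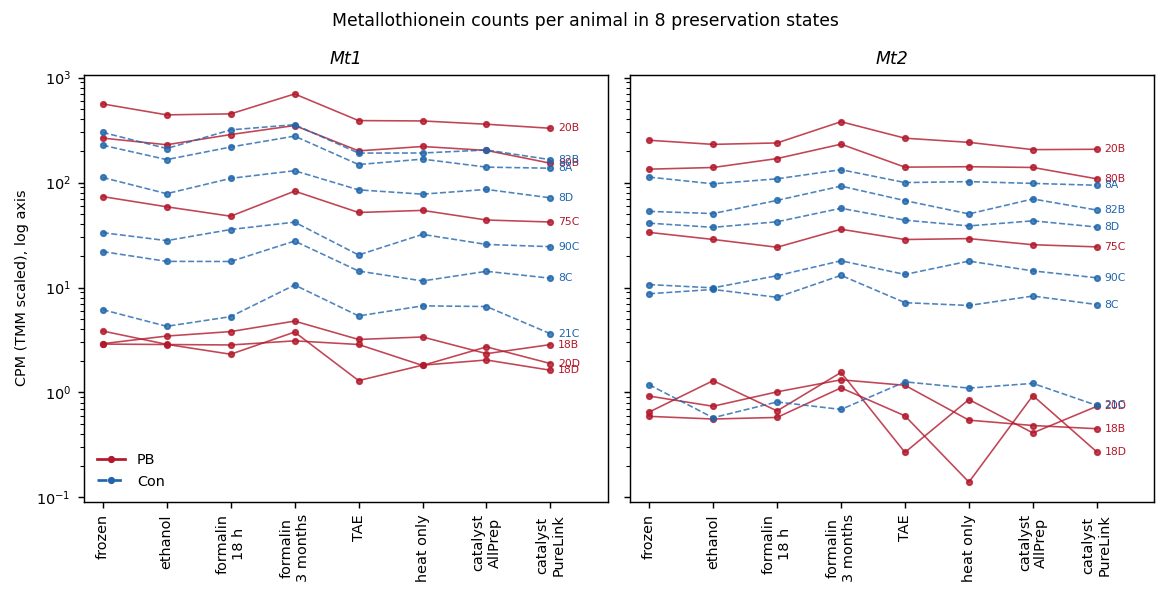
Mt1 and Mt2 in CPM on a log axis across the 8 states, 1 line per animal, PB solid and Con dashed. The lines for Mt1 run nearly flat and mostly keep their order, with animal 20B on top in every state and 3 PB animals at the bottom.

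Genes most like the other members gave lower and less steady values. For Hamp they were Igfbp3 (r = 0.93), Ank (0.92) and Snx29 (0.90), for Tfrc Gnpnat1 (0.92), Pdia4 (0.92) and Nid2 (0.91), and for Slc40a1 Gpbp1 (0.92), Itgb3 (0.91) and Abi2 (0.89). Across the other 7 states r ran from 0.65 to 0.92 for Hamp with Snx29 but from -0.09 to 0.78 for Hamp with Ank, so the order of likeness in frozen liver did not carry over to all states.

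In a wider list of 37 iron regulation and transport genes, of which 35 were tested, 5 were higher and 2 lower in PB frozen livers, with a median log2 fold change of 0.02 against -0.01 for all genes and beside the 9.43% of all genes called there. The 4 with the smallest p were Slc25a37, the mitochondrial iron importer (0.78 ± 0.09, adjusted p = 0.000149), Hfe, a regulator of hepcidin mutated in hereditary haemochromatosis (0.67 ± 0.09, adjusted p = 0.00054), Pcbp2, an iron chaperone (-0.26 ± 0.05, adjusted p = 0.00672), and Aco1, iron regulatory protein 1 (0.35 ± 0.07, adjusted p = 0.00762). The others called were Slc48a1 and Hjv (higher) and Slc39a14 (lower). The haem and haemoglobin carriers Hpx (-0.02 ± 0.44) and Hp (-0.09 ± 0.48), the most abundant uncalled genes of the list, did not pass. In the preserved states, the share of all genes called is given in brackets beside the calls among the 35. The list gave 5 calls in ethanol (6.98%), and 4 each in 18-hour formalin (4.88%), heat only (5.03%) and catalyst PureLink (4.65%). It gave 3 in catalyst AllPrep (4.94%), 1 in TAE (3.29%) and 0 in 3-month formalin (2.1%).

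Of 16 zinc and copper handling genes, 13 were tested and 1 was called, Atox1, a copper chaperone that was higher in PB frozen livers (0.28 ± 0.07, adjusted p = 0.0243). Mtf1, the metal-sensing activator of metallothionein genes, had a log2 fold change of 0.05 ± 0.07 (adjusted p = 0.697). Markers of the cells that recycle or carry iron were not called in frozen liver. The 8 Kupffer cell and macrophage markers summed to 395 to 879 CPM in PB and 328 to 622 CPM in Con (0 called by edgeR and 0 by DESeq2, 1 at an unadjusted p below 0.05). The erythroid markers summed to 243 to 521 CPM in PB and 300 to 404 CPM in Con, and of the 6 tested 0 were called by edgeR, 0 by DESeq2 and 0 at an unadjusted p below 0.05. The hepatocyte marker sum, given with the library totals, had a lower mean in PB than in Con: of its 6 genes edgeR called 0 (3 at an unadjusted p below 0.05, all lower, with Alb at -0.54 ± 0.17) and DESeq2 called 2 lower. The 6 stellate cell and fibroblast markers summed to 497 to 718 CPM in PB and 476 to 642 CPM in Con, with 1 called higher by edgeR, the collagen gene Col3a1 (0.71 ± 0.20, adjusted p = 0.0403), and 2 called higher by DESeq2. The 6 endothelial markers summed to 417 to 554 CPM in PB and 471 to 573 CPM in Con, with 0 called by edgeR or DESeq2 and 2 at an unadjusted p below 0.05. In the preserved states, edgeR called 1 of the 8 Kupffer cell and macrophage markers, in catalyst AllPrep (4.94% of all genes). In 3-month formalin 5 of the 8 had an unadjusted p below 0.05 and 0 were called. Of the 6 endothelial markers 2 were called in 3-month formalin (2.1%) and 2 in TAE (3.29%). In heat only (5.03%) and catalyst AllPrep 1 each was called. The part of these markers in the Hamp, Trf and ferritin differences was not tested.

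Across states, the levels of the 9 genes shifted by amounts smaller than the PB effect on Tfrc and the spread of the metallothioneins. For the ferritins the shifts were near the size of the PB effect. With treatment as a covariate, the log2 difference from frozen ran up to 0.71 for Fth1 and down to -0.52 for Ftl1. The PB log2 fold changes were 0.49 to 0.87 for Fth1 and 0.53 to 0.99 for Ftl1 over the 8 states. Compared with frozen liver, with treatment as a covariate, 14 of 63 tests were called, 11 higher and 3 lower in the preserved state. The members' calls were 2 in ethanol (32.8% of all genes called), 3 in 18-hour formalin (41.1%), 3 in 3-month formalin (60.5%), 3 in TAE (59.0%), and 1 each in heat only (57.0%), catalyst AllPrep (50.4%) and catalyst PureLink (59.2%). The 7 comparisons share the 12 frozen libraries.

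Since each animal gave every state, the same comparison was also fitted with the animal as a block, which called 49 of 63, 20 higher and 29 lower. It called 6 members in ethanol (53.0% of all genes), 5 in 18-hour formalin (57.9%), 8 in 3-month formalin (66.0%), 7 in TAE (68.9%), 7 in heat only (66.8%), 7 in catalyst AllPrep (63.2%) and 9 in catalyst PureLink (71.2%). The split depends on the scaling. Library totals without TMM moved the median log2 difference of all genes up by 0.036 to 0.27, depending on the state, and gave 44 blocked calls, 32 higher and 12 lower, with 8 of the 49 changing sign. Those 8 were Hamp in ethanol, Tfrc in 18-hour formalin, heat only and catalyst PureLink, Slc40a1 in heat only, catalyst AllPrep and catalyst PureLink, and Mt2 in catalyst PureLink. Blocked values in the next paragraphs are TMM scaled.

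Fth1 was higher than frozen in all 7 preserved states with the block, and in 6 without it. Its mean over 12 animals was 959 CPM in 18-hour formalin, 924 in 3-month formalin, 966 in TAE, 864 in heat only, 811 in catalyst AllPrep, 700.1 in ethanol and 656 in catalyst PureLink, against 613 CPM in frozen liver. The blocked log2 differences from frozen ran from 0.11 ± 0.04 in catalyst PureLink to 0.68 ± 0.07 in TAE. No pair of neighbours in this order differed beyond its spread (63 neighbour pairs over all genes, exact sign-change permutation test, Benjamini-Hochberg adjusted).

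Ftl1 moved otherwise. It was higher than frozen in 18-hour formalin (0.26 ± 0.04), 3-month formalin (0.41 ± 0.07) and TAE (0.25 ± 0.07) and lower in ethanol (-0.12 ± 0.02), catalyst AllPrep (-0.23 ± 0.06) and catalyst PureLink (-0.52 ± 0.04), with the block. Its mean was 1014 CPM in 3-month formalin and 544 CPM in catalyst PureLink, against 788 CPM in frozen liver. On TMM-scaled levels, all 12 animals had less Ftl1 in ethanol than in the frozen state (mean log2 difference 0.13, exact permutation p = 0.000488, adjusted p = 0.00879). All 12 also had less in catalyst PureLink than in catalyst AllPrep (0.28, exact p = 0.000488, adjusted p = 0.00879). Under library totals, the blocked difference from frozen was not called in ethanol (-0.03, adjusted p = 0.261) or catalyst AllPrep (-0.03, adjusted p = 0.668).

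The ratio of the 2 ferritin chains within a library does not depend on how libraries are scaled, and it differed from frozen in all 7 states. The log2 ratio of Fth1 to Ftl1 counts averaged -0.03 in ethanol, 0.04 in 18-hour formalin, -0.12 in 3-month formalin, 0.08 in TAE, 0.25 in heat only, 0.30 in catalyst AllPrep and 0.29 in catalyst PureLink, against -0.35 in frozen liver. It was higher than frozen in 12 of 12 animals in 6 states, by 0.32 to 0.65 (exact sign-change permutation p = 0.000488, the smallest 12 animals can give, adjusted p = 0.00171 over the 21 state ratio tests). In 3-month formalin it was higher in 10 of 12, by 0.23 (exact permutation p = 0.00244, adjusted p = 0.00732).

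PB and Con animals overlapped in this ratio in every state. The PB mean was below the Con mean in all 8, by log2 differences of -0.15 to -0.04, and none passed the adjusted exact permutation test (smallest adjusted p = 0.543, smallest unadjusted p = 0.0411 in 18-hour formalin). The ratio of Mt1 to Mt2 and that of Hamp2 to Hamp did not pass against frozen in any state, with smallest adjusted exact permutation p of 0.0526 and 0.115.

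**Figure D4:**
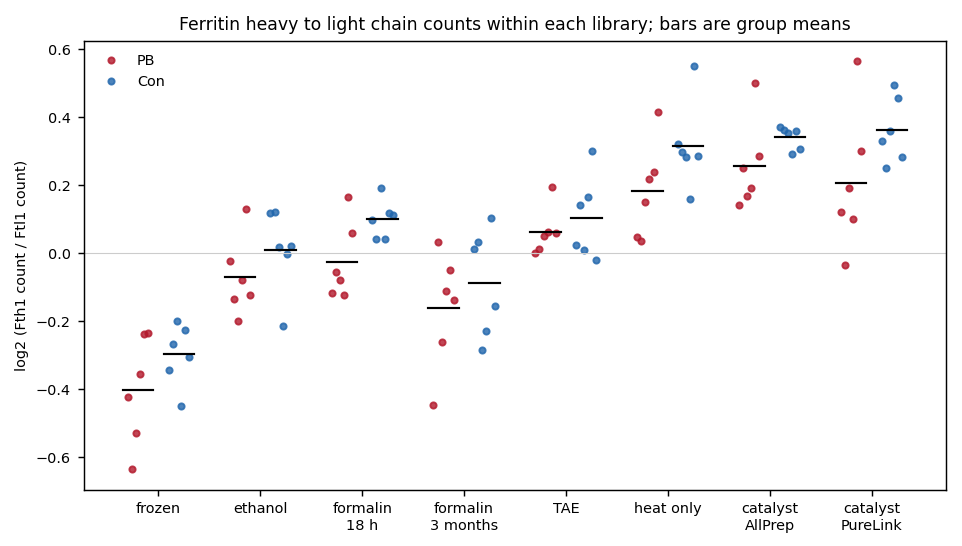
Log2 ratio of Fth1 to Ftl1 counts in each of the 96 libraries by state, PB left of Con, with bars at the group means. Frozen libraries lie between -0.64 and -0.20, and heat only and both catalyst workups lie around or above 0.

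Hamp stood highest in 3-month formalin and lowest in TAE, the same material after heating of its RNA. Its mean over 12 animals was 240 CPM in 3-month formalin and 153 CPM in TAE, against 223 CPM in frozen liver. With the block it was lower than frozen in TAE (-0.50 ± 0.04), heat only (-0.32 ± 0.05), catalyst AllPrep (-0.32 ± 0.05) and catalyst PureLink (-0.41 ± 0.05). It was higher in 3-month formalin (0.18 ± 0.06) and lower in ethanol (-0.08 ± 0.03), where library totals turned the sign. Under library totals, the blocked Hamp difference was not called in heat only (-0.07, adjusted p = 0.224) or catalyst AllPrep (-0.11, adjusted p = 0.0501). The level in 3-month formalin exceeded frozen in 7 of 12 animals (exact permutation p = 0.159, adjusted p = 0.435). Between neighbours in its order, Hamp differed beyond its spread between ethanol and heat only alone (log2 difference 0.25, exact permutation adjusted p = 0.0385). Hamp2 kept to the same 4 workups, lower than frozen with the block, with log2 differences of -0.58 to -0.39, and no neighbours differed beyond their spread.

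Tfrc was highest in 3-month formalin, with a mean of 74.8 CPM against 62.0 CPM in frozen liver (blocked log2 difference 0.34 ± 0.05). Its level there exceeded that in TAE in 11 of 12 animals (0.20, exact permutation adjusted p = 0.00879). With the block Tfrc was also higher than frozen in TAE (0.12 ± 0.05). It was lower in ethanol (-0.16 ± 0.04), 18-hour formalin (-0.10 ± 0.04), heat only (-0.17 ± 0.06) and catalyst PureLink (-0.15 ± 0.06), and all but ethanol changed sign under library totals. The ethanol difference was not called under library totals (-0.08, adjusted p = 0.116). Trf was higher than frozen in 18-hour formalin (0.37 ± 0.03), 3-month formalin (0.34 ± 0.07) and TAE (0.29 ± 0.08) and lower in heat only (-0.42 ± 0.06), catalyst AllPrep (-0.27 ± 0.05) and catalyst PureLink (-0.34 ± 0.06). Its ethanol level exceeded that in catalyst AllPrep in 11 of 12 animals. Under library totals, the blocked Trf difference from frozen was not called in catalyst AllPrep (-0.06, adjusted p = 0.171) or catalyst PureLink (-0.08, adjusted p = 0.183). Without the block, the call for Trf in 3-month formalin was lost when the shallowest library was left out (adjusted p = 0.0567).

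Slc40a1 stayed within a narrow range, with means between 164 CPM in ethanol and 207 CPM in 3-month formalin, against 198 CPM in frozen liver. It was lower in ethanol (-0.26 with and without the block). With the block it was also lower in heat only (-0.20 ± 0.06), catalyst AllPrep (-0.15 ± 0.04) and catalyst PureLink (-0.18 ± 0.04). Under library totals the values of these workups changed sign. It was higher in 18-hour formalin (0.07 ± 0.03) and 3-month formalin (0.14 ± 0.05). The 3-month formalin level of Slc40a1 exceeded frozen in 8 of 12 animals (exact permutation p = 0.291, adjusted p = 0.572). Its TAE level exceeded that in catalyst AllPrep in 11 of 12 animals (0.15, exact permutation adjusted p = 0.00879). Mt1 was higher than frozen in 3-month formalin in 11 of 12 animals (0.31, adjusted p = 0.00879), and with the block it was lower than frozen in ethanol (-0.36 ± 0.04) and in all 4 workups, down to -0.71 ± 0.04 in catalyst PureLink. Mt2 was higher than frozen in 3-month formalin (blocked 0.62 ± 0.08) and lower in catalyst PureLink (-0.19 ± 0.05). These state differences were far below the differences between animals of 154-fold or more.

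**Figure D5:**
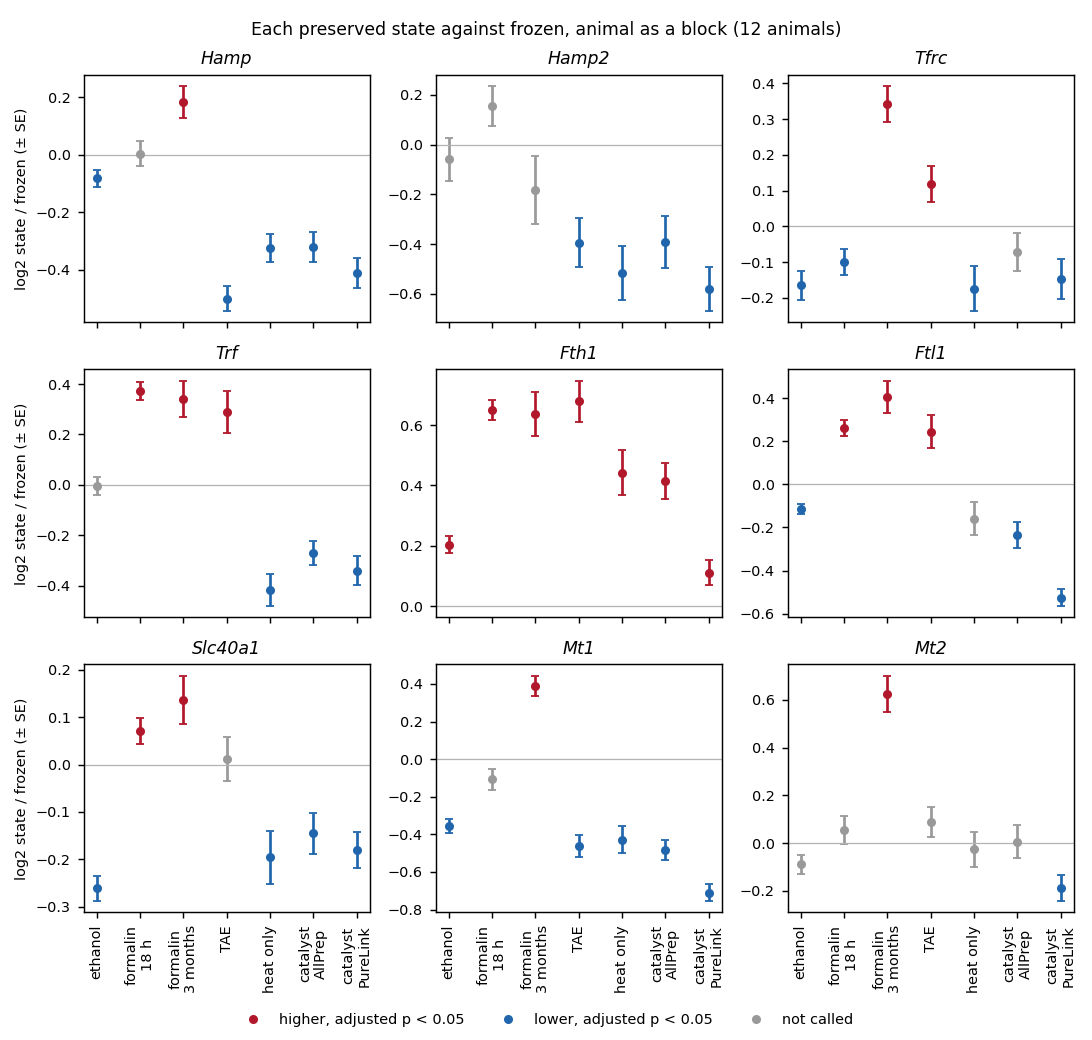
Log2 difference of each preserved state from frozen for each gene, with SE bars, from fits with the animal as a block and TMM scaling. Fth1 is higher (red) in all 7 states, all genes but Hamp2 are higher in 3-month formalin, and most genes are lower (blue) in the heat-only and catalyst workups.

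In 3-month formalin against frozen, the wider iron list gave 16 higher and 7 lower calls among 35 genes, with a median log2 difference of 0.15 against 0.03 for all genes, in a comparison that called 60.5% of all genes. Those with the smallest p were Pcbp2 (1.04 ± 0.05), Ncoa4, the receptor for ferritin turnover (-0.97 ± 0.07), Ireb2, iron regulatory protein 2 (0.69 ± 0.05), and Tfr2, the second transferrin receptor (-1.13 ± 0.09). Of the zinc and copper list 7 of 13 were higher and 5 lower, led by Ccs (-1.48 ± 0.10), and of the acute phase list 1 of 16 was higher and 7 lower.

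Some members were called lower in each of the 4 workups than in the 3-month formalin material they started from. Without the block, TAE gave 1 call of 9 (17.3% of all genes called, 9.42% lower), Hamp at -0.68 ± 0.21 (adjusted p = 0.0246). Heat only gave 5 (46.8%, 23.3% lower), namely Hamp, Tfrc, Trf, Ftl1 and Slc40a1. Catalyst AllPrep gave 3 (47.4%, 23.6% lower), namely Trf (-0.61), Ftl1 (-0.63) and Slc40a1 (-0.27), and catalyst PureLink gave 6 (59.8%, 29.0% lower), with Ftl1 at -0.92 and Trf at -0.64. All 15 calls were lower in the reworked state. Library totals, which moved the median of all genes up by 0.16 to 0.20, left 7.

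With the block, the calls against 3-month formalin were 5, 7, 8 and 9 of 9 for TAE, heat only, catalyst AllPrep and catalyst PureLink, all lower, where 34.5%, 55.9%, 57.8% and 66.7% of all genes were called. Under library totals Ftl1 in TAE changed sign. Tfrc in heat only lost its unblocked call when the PB 18B library with the highest mitochondrial share was left out (adjusted p = 0.0516). The catalyst made no called difference from heat only in the same kit for any of the 9 genes: edgeR called 0 with and without the block and DESeq2 called 0, in a comparison that called 0.891% of all genes without the block and 14.0% with it. At an unadjusted p below 0.05 there were 0 members without the block and 1 with it, Trf (0.11 ± 0.05, adjusted p = 0.112). Without the block, the largest difference there was -0.11 ± 0.14 for Ftl1 among the genes other than the metallothioneins.

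Between the PureLink and AllPrep kits with the catalyst, where 2.32% of all genes were called, edgeR called 0 of the 9 without the block (2 at an unadjusted p below 0.05) and DESeq2 called 0. With the block it called 4 (36.9% of all genes), all lower in PureLink: Fth1 (-0.29 ± 0.04), Ftl1 (-0.27 ± 0.04), Mt1 (-0.20 ± 0.05) and Mt2 (-0.17 ± 0.05).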

How the data were processed

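RNA was sequenced from 8 preservation states of each of 12 mouse livers. The deposited table holds raw read counts per gene in 96 libraries. The submitters' processing notes name STAR 2.5, CASAVA, edgeR, GRCm38 and mm10. How reads were assigned to genes, and whether by strand, is not given in the sources used here, and overlapping or antisense reads cannot be told apart. Of 47465 lines, 92 spike-in lines (110 counts in all) were left out, and 46954 of the other 47373 matched GENCODE M21. Groups came from the labels. No pair of libraries was identical.

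Counts were tested with edgeR 4.0.16 in R 4.3.3 (TMM scaling, filterByExpr, quasi-likelihood F test, Benjamini-Hochberg adjusted p under 0.05 over all genes tested), PB against Con within each state, and states against each other with treatment as covariate. The animal labels pair the libraries of a liver: over 10191 genes all 336 same-animal pairs of libraries had a correlation of deviations above 0.1 (median 0.673, other animals -0.0541), so fits with the animal as a block are given beside the unblocked ones where they change a count. Levels are CPM with TMM scaling over all 96 libraries. Correlations, ratios and level orders used log2 values with 0.5 added, and exact permutation tests were two-sided. Likeness was computed over genes of at least 5 CPM. DESeq2 1.42.0, other scalings, no filter, length and GC trends, and leaving out each animal were alternatives. The fits without the block were tested on simulated data in which libraries were independent, with no effect shared by the libraries of an animal. That test does not cover the pairing or the blocked fits. Figures were drawn with matplotlib 3.10.9.

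The 9 genes, the gene lists and the rule for named genes (of each list, up to 4 called with the smallest p and up to 2 uncalled with the highest level; for likeness, the 3 highest r) were chosen with earlier results of these data known. Mtf1 with PB and the remaining called iron genes were named outside that rule, after their values were seen.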

Additional observations from a re-analysis of the deposited data

Results flagged for a closer look

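In 5 of 144 groups of 6 libraries, 1 animal stood far from the other 5 (its gap to the nearest, divided by the range, was above Dixon's critical value). Chance gives about 1 group in 20. No explanation was tested.

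Hamp2 in heat-only libraries of PB mice was 12.2 CPM in animal 20D, against 2.51 CPM in the nearest of the others. Fth1 in 3-month formalin libraries of Con mice was 476 CPM in animal 8A, whose library was the shallowest of all, and 716 CPM in the nearest of the others.

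The other 3 were Con animal 21C. In ethanol libraries its Trf was 823 CPM (nearest 1347 CPM) and its Fth1 was 630.1 CPM (nearest 557 CPM). In TAE libraries its Ftl1 was 1040.2 CPM (nearest 731 CPM).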

How the results depend on the processing

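The number of member calls between PB and Con, 24 over 8 states, 18 higher and 6 lower, was 24 with RLE scaling, 24 with library totals (20 higher and 4 lower, with Hamp lost and Ftl1 gained in part of the states), 26 without a low-count filter and 28 with DESeq2, and 20 to 27 when each animal was left out in turn. In 3-month formalin (1 call) it was 2 with library totals, 2 without the filter, 3 with DESeq2, and 1 to 3 without each animal. In TAE (1 call) it was 2 without the filter, 2 with DESeq2 and 1 to 2 without each animal. In catalyst AllPrep (2 calls) it was 1 to 3 without each animal.

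Against frozen liver, the total of 14 calls became 49 with the animal as a replicate block, 48 with the block and RLE scaling, 44 with the block and library totals, 45 with the block and the length trend removed, and 48 with the block and the GC trend removed. The same 5 settings gave 6, 6, 4, 5 and 6 in ethanol (1 with library totals, no block), 5, 5, 8, 5 and 4 in 18-hour formalin, 8, 8, 8, 6 and 7 in 3-month formalin, 7, 6, 8, 6 and 7 in TAE, 7, 7, 5, 7 and 7 in heat only, 7, 7, 4, 7 and 8 in catalyst AllPrep, and 9, 9, 7, 9 and 9 in catalyst PureLink (2 each with RLE scaling, library totals, no filter and DESeq2, no block). Between workups the total of 15 became 7 with library totals and 33, 33, 28, 35 and 34 with these block settings: 5, 5, 4, 6 and 5 for TAE against 3-month formalin (0 with library totals), 8 with the GC trend for heat only (2 with library totals), 8, 8, 7, 8 and 8 for catalyst AllPrep, 4, 4, 4, 5 and 4 between the kits, while catalyst PureLink had 3 with library totals.

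Against the fits with TMM and no block, changing block and scaling together turned the sign of 7 uncalled values and called them higher. They were Hamp (0.19) and Tfrc (0.0852) in 18-hour formalin, Mt2 in heat only (0.24), Tfrc (0.14) and Mt2 (0.21) in catalyst AllPrep, and Tfrc (0.12) and Slc40a1 (0.0850) in catalyst PureLink. With the block and TMM, 3 of these, Tfrc in 18-hour formalin and Tfrc and Slc40a1 in catalyst PureLink, were called lower. The ratio tests, 7 past the threshold, gave 12 with 5 counts added and 7 to 11 without each animal (11 without PB 18B). The cause was not tested. Over 2547 alternative values of single genes, 122 had the other sign. The blocked RLE and library-total settings and the fits without the shallowest library or the heat-only library richest in mitochondrial counts were chosen after seeing the data. The block changed no call of a difference in the PB effect. Depth limits Mt2 most, whose lowest counts were 1 to 8.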
